A study of Homo sapiens with 4 samples.

Results

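The cathepsins are proteases that work mainly in the lysosome, and the cystatins are proteins that inhibit the cysteine proteases among them. The genes described here are 10 in number, 6 cathepsins (CTSS, CTSB, CTSD, CTSL, CTSK and CTSZ) and 4 cystatins (CST1, CST3, CST4 and CSTB), out of 60725 genes in the count table, and all 10 members were among the 15356 genes that passed the filter on low counts. The list was chosen because CTSS and CST1 had some of the largest fold changes between TOP2B-depleted and control cells. It was therefore selected on the same contrast that is described below, and the values of the 10 genes are given as a description, with no test.

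The RNA came from RPE1 SunTag cells, a line derived from human retinal pigment epithelium that carries the SunTag system. Control cells received a negative control siRNA, for which the labels name Silencer Select Negative Control No. 2, and TOP2BKD cells received siRNA against TOP2B, for which they name an ON-TARGETplus pool. The study as a whole used further control and TOP2B siRNAs, and its methods do not tie them to these libraries. TOP2B is the gene of DNA topoisomerase II beta, which relieves torsional stress in DNA by cutting and resealing both strands. All cells carried the SunTag system and were transfected with 10 nM siRNA, transfected again after 48 hours, and harvested 72 hours later, on day 5. Each group had 2 libraries of poly(A) RNA, described as independent biological replicates, and between 20310259 and 23887013 counts were assigned to genes per library. The agent and the depletion cannot be told apart in this design. TOP2B itself had 154.9 and 143.5 CPM (counts scaled to the library total) in the control libraries and 15.3 and 13.3 CPM in the TOP2BKD libraries. Of the markers of retinal pigment epithelium, RPE65 and TYR had 0 counts in all 4 libraries and RLBP1 had at most 1 count. BEST1 had 16 and 14 counts in control and 16 and 20 in TOP2BKD cells, and PMEL had 20 and 7 against 31 and 23 counts, and neither passed the edgeR test, although both had higher CPM in both TOP2BKD libraries. By contrast, the epithelial keratin gene KRT8 had 1102 and 1347 CPM in control and 853.5 and 1074 CPM in TOP2BKD cells. These are bulk libraries, in which fewer cells that express a gene and less RNA per cell cannot be told apart.

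Cathepsins are made as inactive precursors that are sorted to lysosomes and cut into active enzymes at acid pH. CTSB, CTSL, CTSK, CTSS and CTSZ use a cysteine to cut their substrates, whereas CTSD is an aspartic protease. Cystatins of type 1, such as CSTB, act inside the cell, and those of type 2, such as CST1, CST3 and CST4, are secreted, and they block cysteine cathepsins by occupying the active site cleft.

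The sequence around the active site cysteine is shown for 4 of the cysteine cathepsins because it is the feature that places CTSS, the cathepsin with the largest fold change, in one family with 3 members whose levels differed little between the groups. The stretches are coding sequence read 5′ to 3′ on the transcript strand of GRCh38 with GENCODE release 44, 45 bases each, and capitals mark the codon of the cysteine. The CTSS, CTSK and CTSL stretches span the junction of exons 4 and 5, and the CTSZ stretch lies in exon 2. On the minus strand, CTSS comes from chr1:150755001-150755006 and chr1:150751970-150752008, CTSK from chr1:150805861-150805866 and chr1:150804201-150804239, and CTSZ from chr20:59006332-59006376. On the plus strand, CTSL comes from chr9:87728391-87728396 and chr9:87728585-87728623.
CTSS: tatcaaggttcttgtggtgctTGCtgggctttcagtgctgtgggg
CTSK: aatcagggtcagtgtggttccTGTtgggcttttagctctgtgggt
CTSL: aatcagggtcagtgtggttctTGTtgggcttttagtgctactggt
CTSZ: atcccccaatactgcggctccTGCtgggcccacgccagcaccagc
Over the aligned coding sequence, CTSS was 62.3% identical to its neighbour CTSK and 59.6% identical to CTSL. Windows of 65 bases, the stated read length, were taken from 1 reference transcript per gene. None from CTSS, CTSK, CTSL or CTSZ occurred exactly in an annotated transcript of another gene. Other transcripts of these 4 genes and the unannotated genome were not searched.

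The cystatins CST1, CST2 and CST4 are near copies on chromosome 20, and their sequences are shown because they set how well reads can be assigned to each gene. In exon 2, a window of CST1 at chr20:23749061-23749125 was identical to that of CST4 at chr20:23687133-23687197, while CST2 differed at 4 bases at chr20:23825255-23825319. All 3 lie on the minus strand and are given 5′ to 3′ on the transcript strand, and capitals mark bases that differ from CST1.
CST1 and CST4: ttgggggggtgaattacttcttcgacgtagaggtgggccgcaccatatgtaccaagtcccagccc
CST2: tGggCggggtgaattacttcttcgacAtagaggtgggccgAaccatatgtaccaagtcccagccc
The coding sequences of CST1 and CST4 were 92.7% identical and those of CST1 and CST2 91.3% identical. Of the 65-base windows of the CST1 reference transcript, 124 of 685 (18.1%) occurred exactly in another gene, and for CST4 the number was 127 of 685 (18.5%). For CST2 it was 26 of 682 (3.81%). Counts of CST1 and CST4 are therefore uncertain to the extent that reads from the shared windows were dropped or split, and the windows of CST3 and CSTB had no exact match in another gene.

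The 10 genes spanned a wide range of expression in these cells. Levels of different genes are compared per length, as CPM per kilobase of transcript. In control cells the order from high to low was CTSB, CTSD, CST3, CSTB, CTSZ, CTSK, CTSL, CST1, CST4 and CTSS, and the highest mean level was 527.8 times the lowest. The libraries overlapped for the neighbours CTSZ and CTSK, CTSK and CTSL, and CST4 and CTSS in that order. In TOP2BKD cells the order was CTSD, CTSB, CST3, CSTB, CTSK, CTSZ, CTSL, CST1, CTSS and CST4, the highest level was 137.1 times the lowest, and the libraries overlapped for CTSD and CTSB and for CTSK and CTSZ. Among all tested genes, the mean CPM over the 4 libraries put CTSB at percentile 99.8, CTSD at 99.5 and CST3 at 94.6, and put CTSS at 44.9, CST1 at 36.0 and CST4 at 20.7. The 3 genes with the largest fold changes were thus the 3 with the lowest levels of the list.

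**Figure D1:**
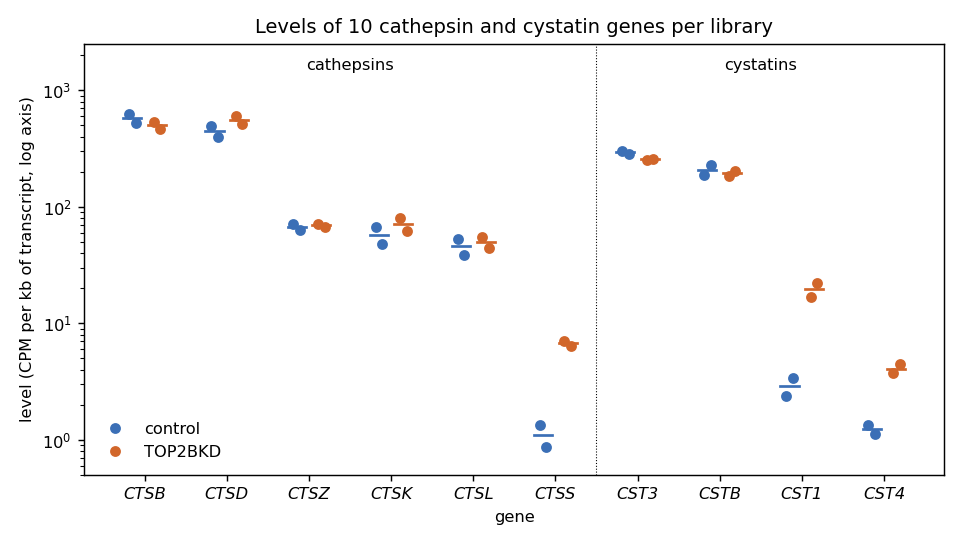
Level of each of the 10 genes in CPM per kilobase of transcript on a log axis, with 1 point per library for control and TOP2BKD cells. CTSS, CST1 and CST4 lie at the low end and have TOP2BKD points well above the control points, whereas the points of the 2 groups lie close together for the other 7 genes.

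CTSS, a cysteine cathepsin that antigen-presenting cells use to degrade the invariant chain of MHC class II and that keeps its activity at neutral pH, was higher in TOP2BKD cells. It lies at chr1:150730079-150765957 on the minus strand (GRCh38). Its counts were 126 and 77 in the control libraries and 589 and 511 in the TOP2BKD libraries. Its level was 5.26 and 3.38 CPM in control and 27.8 and 25.3 CPM in TOP2BKD cells, so both TOP2BKD libraries lay above both control libraries. The mean went from 4.32 ± 1.33 CPM (SD, n = 2) to 26.6 ± 1.73 CPM (SD, n = 2). The fitted log2 fold change was 2.62 (SE 0.20), a 6.13-fold difference. Taken pair by pair, the 4 differences between a TOP2BKD and a control library ranged from 2.25 to 3.01 on the log2 scale.

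CTSS nonetheless remained a small part of the cysteine cathepsin transcripts. Its share of the summed level per kilobase of CTSB, CTSL, CTSK, CTSS and CTSZ was 0.162% and 0.127% in control and 0.943% and 1.00% in TOP2BKD cells. CTSB made up 76.7% and 77.8% of that sum in control and 71.4% and 72.0% in TOP2BKD cells. The ratio of CTSS to CTSK, per kilobase, was 0.0200 and 0.0180 in control and 0.0882 and 0.103 in TOP2BKD cells.

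CST1 (cystatin SN), a secreted inhibitor best known from saliva, was also higher in TOP2BKD cells. It lies at chr20:23747562-23751268 on the minus strand. It had 43 and 58 counts in control and 267 and 337 counts in TOP2BKD cells, that is 1.80 and 2.54 CPM against 12.6 and 16.7 CPM, with no overlap between the groups. The fitted fold was 6.75 (log2 SE 0.23), and the 4 pairwise log2 differences ranged from 2.27 to 3.16.

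CST4 (cystatin S), another salivary inhibitor, lies at chr20:23685640-23689038 on the minus strand. It had 24 and 19 counts in the control libraries, with exact 95% Poisson intervals of 15.4 to 35.7 and 11.4 to 29.7, and 59 and 67 counts in the TOP2BKD libraries, with intervals of 44.9 to 76.1 and 51.9 to 85.1. These intervals cover counting error only. The level was 1.00 and 0.833 CPM in control and 2.78 and 3.32 CPM in TOP2BKD cells, and the groups did not overlap. The fitted fold was 3.31 (log2 SE 0.29).

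CST2 (cystatin SA), the third of these near copies, is no member of the list. It had 4.51 and 4.34 CPM in control and 6.75 and 7.09 CPM in TOP2BKD cells, a log2 fold change of 0.64 (SE 0.19) that missed the threshold (adjusted p = 0.0537, edgeR quasi-likelihood test). The make-up of the 3 copies differed between the groups. CST1 was 24.5% and 32.9% of their summed level per kilobase in control and 56.9% and 61.5% in TOP2BKD cells, and CST2 was 61.8% and 56.4% in control and 30.6% and 26.2% in TOP2BKD cells. The share of CST4 stayed between 10.8% and 13.7% in the 4 libraries. The sum itself was 9.78 and 10.3 CPM per kilobase in control and 29.6 and 36.3 in TOP2BKD cells. How far reads assigned to the wrong copy contribute to these shares was not tested.

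**Figure D2:**
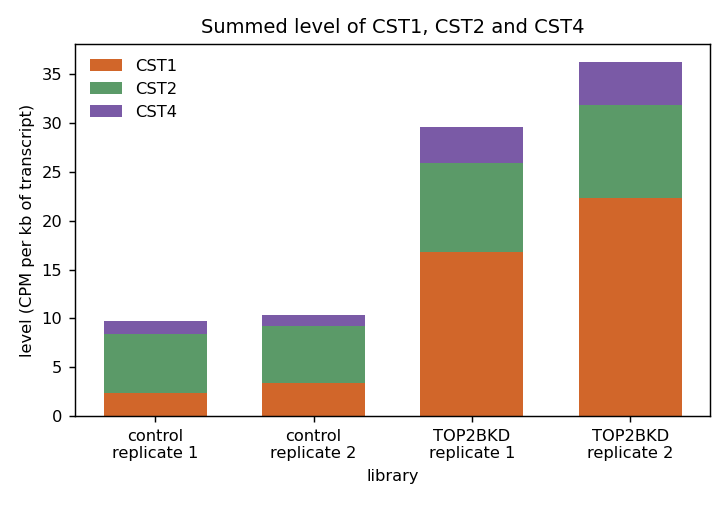
Summed level of CST1, CST2 and CST4 in CPM per kilobase, stacked by gene, with 1 bar per library. The bars of the TOP2BKD libraries reach 29.6 and 36.3, against 9.78 and 10.3 in the control libraries, and the CST1 segment is the largest in TOP2BKD cells while the CST2 segment is the largest in control cells.

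The abundant cathepsins had small fold changes between the groups. The intervals given come from the fit without a replicate block. CTSB, a cysteine protease that cuts both inside proteins and at their ends, lies at chr8:11842524-11869533. It had 2357 and 1965 CPM in control and 1996 and 1731 CPM in TOP2BKD cells, and the groups overlapped (log2 fold change -0.21, 95% interval -0.61 to 0.18). CTSD, the aspartic cathepsin at chr11:1752752-1764573, had 1014 and 809.3 CPM in control and 1241 and 1055 CPM in TOP2BKD cells. Both TOP2BKD libraries lay above both control libraries, and the interval of the log2 fold change of 0.33 still spanned 0 (-0.05 to 0.72). Of the exonic bases of CTSD, 62.1% overlap other annotated genes, so its counts are uncertain to that extent. One of them, ENSG00000250644 on the same strand, had 0 counts in all libraries, and the antisense gene PRADX had 181 and 104 counts in control and 218 and 122 in TOP2BKD cells, against 18449 to 26298 counts for CTSD.

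CTSK, a collagen-degrading protease of osteoclasts, lies beside CTSS at chr1:150794880-150809577. It had 109.1 and 77.7 CPM in control and 130.5 and 101.7 CPM in TOP2BKD cells. The groups overlapped, and the log2 fold change was 0.31 (interval -0.08 to 0.71). CTSL, an endopeptidase of most cell types, lies at chr9:87724051-87731469. It had 87.3 and 64.3 CPM in control and 91.2 and 73.3 CPM in TOP2BKD cells (log2 fold change 0.12, interval -0.25 to 0.49). CTSZ, a carboxypeptidase at chr20:58985686-59008238, had 106.2 and 94.5 CPM in control and 107.9 and 100.7 CPM in TOP2BKD cells (log2 fold change 0.06, interval -0.22 to 0.33). For all 5 of these cathepsins and for CTSS, replicate 2 lay below replicate 1 in both groups.

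The differences were also small for the abundant cystatins. CST3 (cystatin C), the secreted inhibitor present in most body fluids, lies at chr20:23626706-23638473, in the same cluster as CST1 and CST4. It had 240.1 and 226.4 CPM in control and 201.3 and 205.3 CPM in TOP2BKD cells. Both TOP2BKD libraries lay below both control libraries, with a log2 fold change of -0.20 whose interval spanned 0 (-0.48 to 0.08). CSTB (stefin B), the intracellular inhibitor at chr21:43772511-43776330, had 109.8 and 133.4 CPM in control and 107.1 and 120.1 CPM in TOP2BKD cells, and the groups overlapped (log2 fold change -0.10, interval -0.40 to 0.21).

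Summed per kilobase, the 5 cysteine cathepsins had 823 and 677 CPM in control and 749 and 644 CPM in TOP2BKD cells, and the 4 cystatins had 493 and 517 CPM in control and 457 and 490 CPM in TOP2BKD cells. The ratio of the cysteine cathepsins to the cystatins was 1.67 and 1.31 in control and 1.64 and 1.31 in TOP2BKD cells, so the ratio differed more between replicates than between groups. CST1 made up 0.486% and 0.657% of the 4 cystatins in control and 3.68% and 4.56% in TOP2BKD cells. These are transcript levels, and the amounts of active enzyme and inhibitor were not measured.

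In the fit across all genes, CTSS, CST1 and CST4 passed an adjusted p of 0.05 as higher. No member passed as lower in that fit, at an unadjusted p of 0.05 or with DESeq2 either. With a replicate block, CTSD and CTSK were also called higher, and CTSB and CST3 were called lower. That fit called 3440 of the 15356 tested genes higher and 3346 lower. Without the block, 10.8% of all tested genes passed, 6.66% as higher and 4.18% as lower. The libraries did not overlap for 4 members higher in TOP2BKD cells (CTSS, CTSD, CST1 and CST4) and 1 lower (CST3), against 27.7% and 26.6% of all tested genes. Because the list was selected on this contrast, nothing is read from these counts. The median log2 fold change was 0.22 over the 10 members and -0.003 over all tested genes.

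Outside the 10 genes, 28 others were listed, namely 9 cathepsins, 14 cystatins and 5 other inhibitors or activators of cathepsins, and 8 passed the filter on low counts. Of these 8, 1 was called, where 10.8% of all tested genes passed in either direction. This was CTSF, a cysteine cathepsin that is widely expressed. It rose from 15.1 and 11.01 CPM to 27.4 and 23.7 CPM, a log2 fold change of 0.97 (SE 0.17, adjusted p = 0.00796, edgeR quasi-likelihood test). CTSC, the dipeptidyl peptidase that activates serine proteases of granulocytes, had the highest level per length of the other cathepsins. It had 446.2 and 399.9 CPM in control and 612.1 and 535.8 CPM in TOP2BKD cells and did not pass (log2 fold change 0.44, adjusted p = 0.0889). LGMN (legumain), a lysosomal protease that helps process cathepsins, had 43.1 and 35.2 CPM in control and 31.4 and 28.0 CPM in TOP2BKD cells and did not pass either (log2 fold change -0.40, adjusted p = 0.101). The 6 other cathepsins that were tested all had a fitted log2 fold change above 0, with a median of 0.28. Over all tested genes, 7640 of 15356 were above 0. Among the 28 genes, 14 had 0 counts in all 4 libraries, and 10 of these were cystatins.

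**Figure D3:**
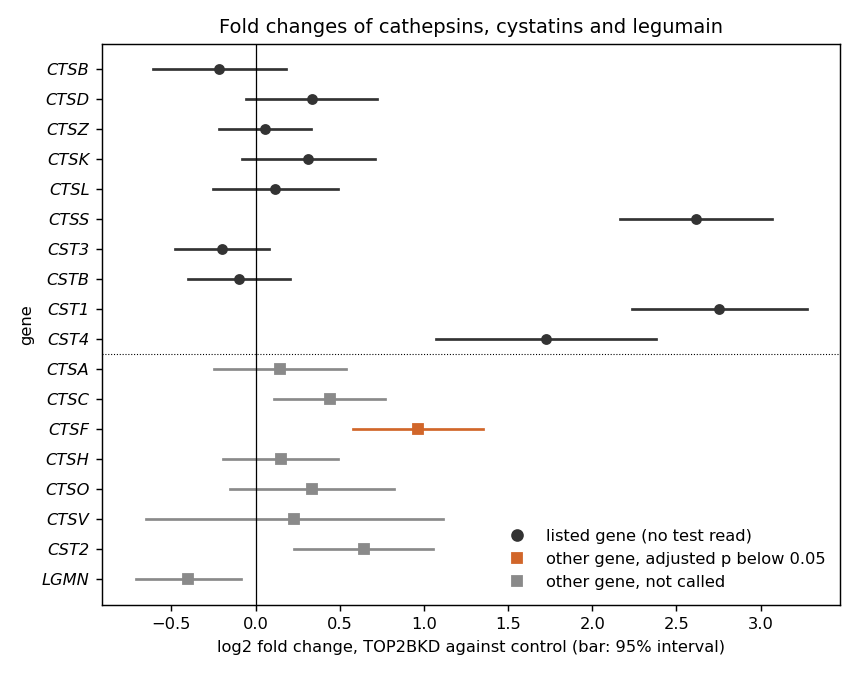
Log2 fold change of TOP2BKD against control with its 95% interval for the 10 listed genes, shown as dark circles, and for 8 other tested genes (6 cathepsins, the cystatin CST2 and the protease LGMN), shown as squares. CST1, CTSS and CST4 lie between 1.73 and 2.75, the other 7 listed genes have intervals that span 0, and CTSF is the 1 other gene that passed the test.

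The fold changes of CTSS and CST1 were set beside those of the genes around them. Both were chosen for their large fold changes in this contrast, so their height above other genes is given by the selection. CTSS and CTSK start 43.6 kb apart and had log2 fold changes of 2.62 and 0.31. Of 32 other annotated genes whose start lay in either gene or within 250 kb of its ends, 14 were tested: TARS2, ECM1, ADAMTSL4, MCL1, ENSA, GOLPH3L, ARNT, SETDB1, CERS2, ANXA9, MINDY1, PRUNE1, BNIPL and C1orf56. Their log2 fold changes ranged from -0.37 to 0.58. CST1 and CST4 start 62.2 kb apart and CST1 and CST2 75.5 kb apart. By the same measure, around CST1, CST3 and CST4, 26 other genes were annotated and 3 were tested, namely NAPB, ENSG00000270001 and CST2, with log2 fold changes from -0.38 to 0.64. None of these 17 neighbours passed the edgeR test at an adjusted p of 0.05, where 10.8% of all tested genes did. Among the 17, 3 had an unadjusted p under 0.05, and DESeq2 called 0. With a replicate block, 3 of them were called higher and 4 lower, where 3440 and 3346 of the 15356 tested genes were.

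**Figure D4:**
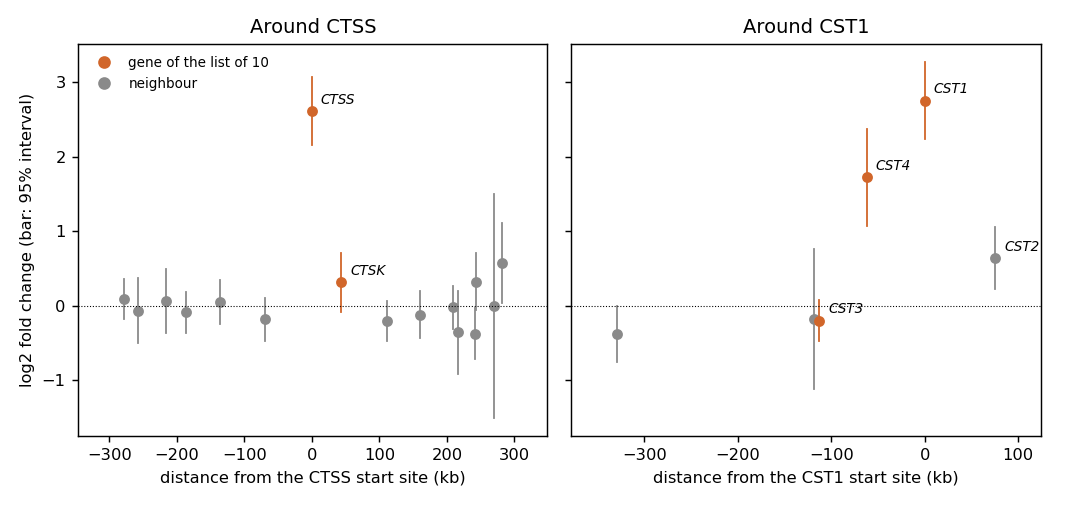
Log2 fold change with its 95% interval for tested genes around CTSS and around CST1, plotted against the distance in kb between start sites. CTSS at 2.62 and CST1 at 2.75 were chosen for their large fold changes and stand above the 17 tested neighbours. These neighbours lie between -0.38 and 0.64, and CST4 lies at 1.73.

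The wider lysosomal system was examined through 4 lists with 61 genes, of which 60 were tested. Of these, 10 rose, 4 fell and 46 did not pass, and the median log2 fold change was -0.07. Over all tested genes, 6.66% passed as higher and 4.18% as lower. Among 32 hydrolases and activators, 6 rose and 1 fell. The rises included GAA, the acid alpha-glucosidase of glycogen breakdown, with 20.1 and 16.0 CPM in control and 50.8 and 44.7 CPM in TOP2BKD cells (log2 fold change 1.40, adjusted p = 0.000754). GUSB, the beta-glucuronidase, rose by 1.37 (adjusted p = 0.00078) and MAN2B1, the alpha-mannosidase, by 1.26 (adjusted p = 0.00236) on the log2 scale. NAGLU and ARSA, which act on heparan sulfate and on sulfatides, rose by 0.74 (adjusted p = 0.00845) and 0.67 (adjusted p = 0.0205), and PLA2G15, a lysosomal phospholipase, fell by 0.74 (adjusted p = 0.00517). PSAP, the precursor of the saposins, had the highest level of the hydrolase list. ARSA did not pass without control replicate 2 (log2 fold change 0.53, adjusted p = 0.104).

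Of 14 genes of the lysosomal membrane and of acidification, MCOLN1, a calcium channel, rose by 0.95 (adjusted p = 0.0143) and NPC1, a cholesterol exporter, by 0.85 (adjusted p = 0.0167), whereas ATP6V1A, a subunit of the proton pump, fell by 0.56 (adjusted p = 0.0193). The call of ATP6V1A was lost without control replicate 2 (adjusted p = 0.102) and without TOP2BKD replicate 1 (adjusted p = 0.154). CD63, a tetraspanin, had the highest level of that list. Of 10 sorting genes, GGA3, an adaptor of hydrolase carriers, rose by 0.47 (adjusted p = 0.0331) and SORL1, a sorting receptor, fell by 1.21 (adjusted p = 0.00243), and M6PR, a receptor that carries hydrolases to the lysosome, had the highest level. Of the 4 MiT/TFE transcription factors, which drive lysosomal genes, TFEC rose by 1.26 (adjusted p = 0.0061) and TFEB fell by 0.72 (adjusted p = 0.0381). TFE3 had the highest level of these factors. With all 4 libraries, the DESeq2 Wald test called GGA3 (adjusted p = 0.028) but not TFEB (adjusted p = 0.0855). The calls of GGA3 and TFEB were each lost when any 1 of the 4 libraries was left out, with adjusted p values of 0.0618 to 0.198 and of 0.0543 to 0.130.

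**Figure D5:**
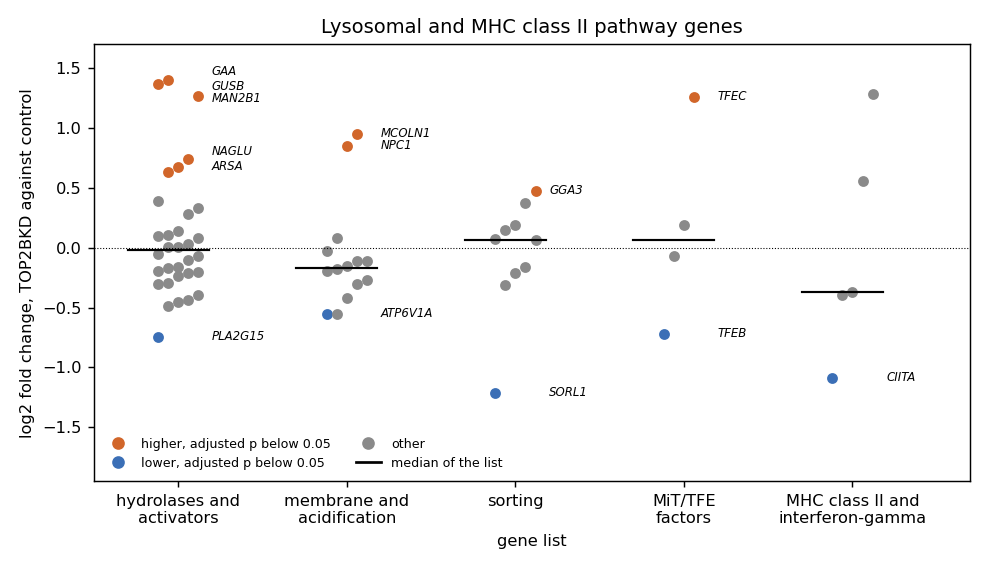
Log2 fold change of each tested gene in 4 lysosomal lists and in the list of MHC class II and interferon-gamma genes, with 1 point per gene, the median of each list as a bar, and colour for genes with an adjusted p below 0.05. Rises and falls both occur, 10 and 4 over the lysosomal lists, and their medians lie between -0.17 and 0.07.

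CTSS is known as an interferon-gamma target of antigen-presenting cells, so genes of that system were read beside it. Of 13 genes of the MHC class II pathway and interferon-gamma factors, 5 were tested. CIITA, the master activator of MHC class II genes, fell by 1.09 (adjusted p = 0.0318), a call that was lost without TOP2BKD replicate 2 (log2 fold change -0.78, adjusted p = 0.125). CD74, the invariant chain that CTSS degrades, had at most 2 counts in any library, and 8 of the 13 genes had 3 counts or fewer in every library.

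Markers of other cell types in which these genes are known were low, apart from the osteoclast marker TNFRSF11A and the macrophage marker CSF1R. TNFRSF11A had a mean of 12.65 CPM in control and 18.61 CPM in TOP2BKD cells, against 4.32 and 26.57 CPM for CTSS. The 8 macrophage markers summed to 67 and 83 counts in control and 79 and 67 in TOP2BKD cells, with TYROBP at 0 counts, and most of the sum came from CSF1R, with 51 and 70 against 65 and 60 counts. The 6 osteoclast markers summed to 326 and 292 counts in control and 482 and 323 in TOP2BKD cells, with CALCR, DCSTAMP and OCSTAMP at 0 counts in all libraries, and TNFRSF11A, the highest of them, did not pass (log2 fold change 0.56, adjusted p = 0.0865). The 8 salivary gland markers summed to 11 and 4 counts in control and 6 and 9 in TOP2BKD cells, all from PRR4 where the other 7 were at 0. Scaled for depth, the macrophage sums were 2.80 and 3.64 CPM in control and 3.73 and 3.32 CPM in TOP2BKD cells, and the salivary gland sums were 0.459 and 0.175 CPM against 0.283 and 0.446 CPM, so both overlapped between the groups. The osteoclast sums did not overlap, with 13.6 and 12.8 CPM in control and 22.7 and 16.0 CPM in TOP2BKD cells, and both tested markers of that list, TNFRSF11A and OSCAR, were higher in both TOP2BKD libraries, although neither passed the test. The part of these markers in the values of the 10 genes was not tested.

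The genes with the pattern most like that of CTSS over the 4 libraries were ST6GAL2, HSF4 and THBS1, with root mean square differences of centred log2 CPM of 0.229, 0.317 and 0.337. For CST1 they were NFATC2, THBS1-IT1 and H2BC12, with 0.197, 0.222 and 0.225. These were picked from the 13326 tested genes whose mean level reached 1 CPM. With 4 libraries in 2 groups such a likeness mostly reflects a similar difference between the groups. NFATC2 had a mean of 0.41 CPM in control and 2.47 CPM in TOP2BKD cells, and THBS1-IT1 had 0.77 and 4.22 CPM. Both reached 1 CPM only through the TOP2BKD libraries, so at low levels the filter favours genes with such a rise. The 6-base word GCAACC was sought in the annotated 3′ UTR of 1 reference transcript per gene, on the transcript strand only. It occurred at 1 site in CTSB and in none of the other 9 members. Of 12385 tested genes with such a 3′ UTR of at least 50 bases, 23.6% held it.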

How the data were processed

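Poly(A) RNA of 2 control and 2 TOP2BKD cultures was sequenced, per the labels, as single-end 65-base reads, although the column names of the deposited table carry the tag of stranded paired-end data; the shared windows assume the stated length. According to the submitters' processing notes, the authors checked reads with FastQC 0.11.6 and aligned them with STAR 2.5.4a to GRCh38 with Gencode version 24, and the deposited table holds raw read counts per gene. The strand setting of the counting was not given in the sources used here. The table also held 4 columns that repeated the 4 libraries and were not used.

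Groups were taken from the sample labels. A gene was tested if 2 or more libraries had 10 or more counts (15356 of 60725). TOP2BKD was compared with control by edgeR 4.0.16 (R 4.3.3), with TMM scaling, the quasi-likelihood test and Benjamini-Hochberg adjustment over all tested genes, with 0.05 as the threshold for a call. CPM used TMM-scaled library sizes, and intervals are 95%. The fit was checked on simulated data. Alternatives were DESeq2 1.42.0, DESeq2 size factors, unscaled library sizes, other filters, a replicate block and leaving out each library. Positions, transcript lengths and sequences came from GENCODE version 44. P-values set the group difference against a variance that was estimated from 2 replicates a group and moderated across genes. The 10 members and all gene lists were chosen with earlier results of these data known. Besides TOP2B and the members, genes were named if called in a list (at most 6 a list), highest in level in a list, or tested neighbours, together with the 3 genes most alike to CTSS and to CST1. Some items that this rule would name are not reported here.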

Additional observations from a re-analysis of the deposited data

How the results depend on the processing

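The log2 fold changes of CTSS, CST1 and CST4 stayed positive under all alternatives run, at 2.34 to 2.97, 2.52 to 3.02 and 1.58 to 1.87. Over the 10 members, 95 of 99 alternative values had the sign of the reported one. The sign changed for CTSL without TOP2BKD replicate 1 (-0.04) and without control replicate 2 (-0.09). Without control replicate 2 it also changed for CTSZ (-0.03) and CSTB (0.05). With a filter on a mean count of 100, CST4 was not tested, and the MHC class II list had 0 falls. Without any filter, 985 genes fell over the table against 642, 3 other listed cathepsins, cystatins and regulators rose against 1, 8 lysosomal genes fell against 4, and 1 neighbour rose. DESeq2 gave 2 other listed genes that rose and 2 MHC class II genes that fell. Leaving out 1 library at a time gave 3 to 4 members called higher (the added one was CTSK without control replicate 1), 1 to 2 other listed genes, 3 to 6 lysosomal genes that fell, and 0 to 1 MHC class II genes that fell. In these fits the lone library of a group is assumed to vary like those of the other group. The cause of these differences was not tested.

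Same-numbered libraries shared only a number in the labels, and the deviations of the replicate 1 libraries from their group means correlated at 0.479 across genes. With a replicate block, 3440 genes rose and 3346 fell. Among the members 5 were called higher, CTSD and CTSK besides CTSS, CST1 and CST4, and 2 lower, CTSB and CST3. Called higher and lower were 6 and 1 other listed genes and 16 and 22 lysosomal genes. For MHC class II genes the numbers were 1 and 3, and for neighbours 3 and 4.

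CST4, with 19 to 67 counts, is the member whose depth limits it most.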
